A study of Homo sapiens with 6 samples.

Results

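Translation factor genes were described in SW872 cells, a human liposarcoma cell line, after treatment with Apatinib. The members were the rows of the deposited count table whose gene symbol began with EIF or EEF followed by a digit. Symbols that ended in P and digits (111 rows, most with the symbols of pseudogenes) and symbols with a hyphen (5 rows) were left out, which left 61 of 57773 rows. The same rule left out the eIF4E-binding proteins, which are therefore reported with the other translation genes. Of the 61 members, 58 passed the filter on low counts and were tested together with 16290 genes in all. Of the other 3, EIF4E1B and EEF1G had 0 counts in all 6 libraries, and no level is given for EIF1AY.

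RNA sequencing was performed on 3 Apatinib libraries (18 μM for 24 h) and 3 untreated control libraries, all from the same cell line grown in RPMI-1640 with serum. The controls were taken as untreated from their treatment label, although the general treatment text attached to them also mentions Apatinib. Apatinib is a tyrosine kinase inhibitor directed mainly at VEGFR2. The study gives the replicates as biological. The libraries held between 17043314 and 22067558 counts. All values describe 1 cell line at 1 dose and 1 time.

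Protein synthesis starts when the initiation factors (eIFs) load the small ribosomal subunit onto a messenger RNA. The complex eIF4F, made of the cap-binding protein eIF4E, the scaffold eIF4G and the helicase eIF4A, recruits the 43S complex, which carries eIF1, eIF1A, eIF3, eIF5 and the ternary complex of eIF2, GTP and initiator tRNA. After the start codon is found, eIF5B joins the large subunit, and the elongation factors (eEFs) then deliver aminoacyl-tRNA and move the ribosome along. The pathway is a textbook target of the mTOR kinase, which releases eIF4E from its binding proteins, and of the eIF2 kinases, which slow initiation under stress.

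Before the comparison, the libraries were compared with each other. Control replicates 1 and 2 differed by a mean chi-square of 2.27 per gene, where counting error alone gives about 1. The other pairs within a group differed by 18.2 to 44.5. Control replicates 1 and 2 were thus much closer to each other than either was to control replicate 3. Whether they came from separate cultures was not tested. If they did not, the controls count as 2 samples, and the SE and FDR values below are too small. For this reason each edgeR call made with all 6 libraries is also given with the counts of control replicates 1 and 2 summed to 1 library. The mesenchymal genes VIM, FN1 and CD44 were abundant in all libraries, and all 6 listed mesenchymal markers were detected, with a summed level of 6690 to 8050 CPM in the Apatinib group and 5510 to 5680 CPM in the control group. Of 7 adipocyte markers, FABP4, ADIPOQ and CEBPA were at 0 counts in all libraries, while PPARG had 859 to 1138 counts. The adipocyte sum was 65.6 to 89.4 CPM with Apatinib and 61.4 to 63 CPM in the controls. The leukocyte sum was 2.75 to 4.01 CPM with Apatinib and 4.5 to 5.44 CPM in the controls, with PTPRC at 0 in all libraries. The epithelial and endothelial sums overlapped between the groups, at 2.43 to 16.1 CPM, and KDR, which encodes VEGFR2, had 4 to 11 counts. The mesenchymal and adipocyte sums were higher and the leukocyte sum lower with Apatinib, without overlap between the groups, and their part in the results below was not tested. CPM, the counts of a gene relative to the TMM-scaled total of its library, is the level used here unless FPKM is named.

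Apatinib changed 5 of the 58 tested members, in both directions. EIF1 and EIF4E3 rose, and EIF5B, EIF4E and EIF1AX fell. All 5 calls were lost without control replicate 1, without control replicate 2 and with both summed, with the directions kept. A differentially expressed gene (DEG) was a gene with a Benjamini-Hochberg FDR under 0.05 in edgeR's quasi-likelihood test and a log2 fold change over 0.5 in size. The 5 DEGs were 8.62% of the tested members, against 11.5% of all genes tested (1866 of 16290). By FDR alone, without the fold limit, the members called were also 5, against 12.9% of all genes. Of all genes, 5.97% were higher and 5.48% lower with Apatinib, and of the members 2 were higher and 3 lower. The median log2 fold change of the members was 0.01, and that of all genes 0.00284. In size, 51 of the 58 members moved by less than 0.5 on the log2 scale, and 30 had a log2 fold change above 0. Of the members, 15 (25.9%) had groups that did not overlap in CPM, against 33.2% of all genes, and 15 had an unadjusted p under 0.05. In bulk libraries, a change in the cells' RNA per cell and a change in the mix of cells cannot be told apart.

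**Figure D1:**
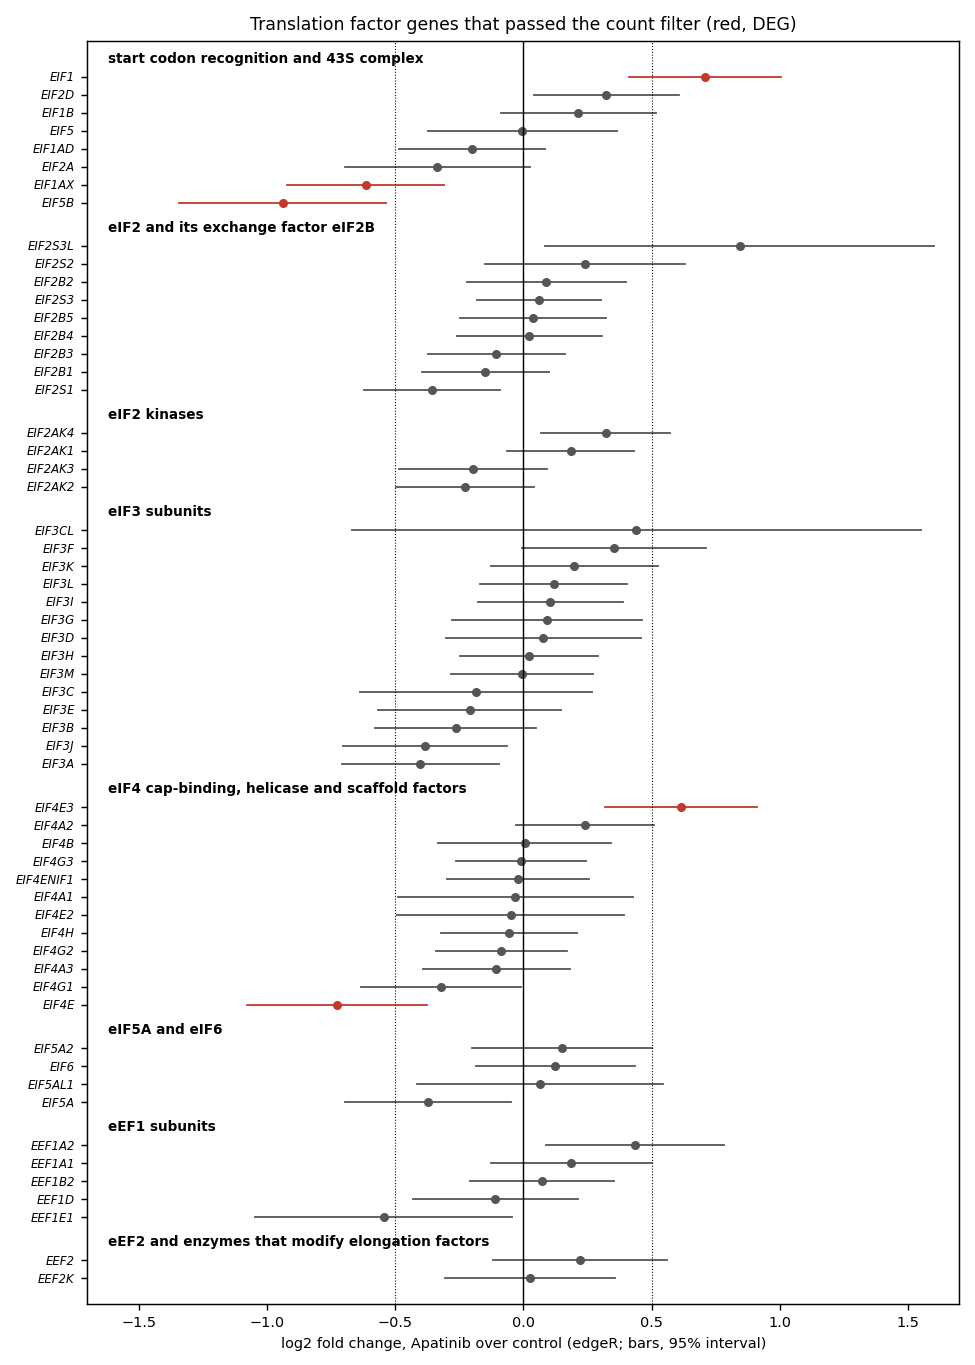
The log2 fold change of each tested translation factor gene (x axis, Apatinib over control, edgeR) is plotted by role, with bars for the 95% interval and dotted lines at the fold change limit of 0.5. The 5 DEGs in red lie among the start codon and eIF4 factors, from -0.94 for EIF5B to 0.71 for EIF1, and most other intervals cross 0.

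The factors that act at the start codon held 3 of the 5 DEGs among 8 tested genes, a small list in which the share of DEGs (37.5%, against 11.5% of all genes) was not tested. EIF1 (ENSG00000173812), which keeps the scanning ribosome from starting at a wrong codon, was at 485, 599 and 436 CPM in the Apatinib libraries and at 309, 309 and 312 CPM in the controls. All 3 Apatinib libraries were above the controls, which lay within a few CPM of each other. EIF1 rose 1.63-fold (log2 fold change 0.71, SE 0.13, FDR = 0.0109, edgeR).

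EIF1AX (ENSG00000173674) encodes eIF1A, the partner of eIF1 on the scanning ribosome, and it moved the other way. Its level was 72.5, 79.9 and 95.4 CPM with Apatinib and 135, 134 and 110 CPM in the controls. The groups did not overlap, and Apatinib replicate 3 and control replicate 3 were the nearest to each other. EIF1AX fell by 0.62 on the log2 scale (SE 0.14, FDR = 0.0197, edgeR).

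EIF5B (ENSG00000158417), the GTPase that joins the ribosomal subunits, had the largest fall among the members. It was at 59.9, 61.3 and 73.9 CPM with Apatinib and at 141, 145 and 87.5 CPM in the controls. Control replicates 1 and 2 stood far above control replicate 3, which was still above every Apatinib library. The control level was 1.92 times that of the Apatinib group (log2 fold change -0.94, SE 0.18, FDR = 0.0119, edgeR). On the opposite strand the exons of EIF5B overlap REV1 in GENCODE, and the strand setting of the counts is not given in the sources used here. REV1 had 470 to 754 counts and a log2 fold change of -0.17 (FDR = 0.446, edgeR). EIF1 and EIF1AX have no such overlap. Of the genes that overlap EIF4E and EIF4E3, those in the count table had 0 to 2 counts, and AC097634.4, on the strand of EIF4E3, is not in that table.

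The other 5 tested genes of the start codon list passed no limit. EIF2D, which can place initiator tRNA without eIF2, was at 60.6, 52.6 and 47.9 CPM with Apatinib and at 41.5, 41.5 and 45.7 CPM in the controls, without overlap (log2 fold change 0.32, FDR = 0.117, edgeR). EIF2A, another alternative initiator, had a log2 fold change of -0.34 with overlapping groups (FDR = 0.192, edgeR). EIF1AD, whose role at the start codon was not examined, was at -0.20 on the log2 scale. EIF1B, the close relative of EIF1, was at 0.21. EIF5, which triggers GTP hydrolysis on eIF2, was at 308, 488 and 367 CPM with Apatinib and at 419, 412 and 336 CPM in the controls, a spread that left its log2 fold change at -0.0045 with a 95% interval from -0.37 to 0.36.

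**Figure D2:**
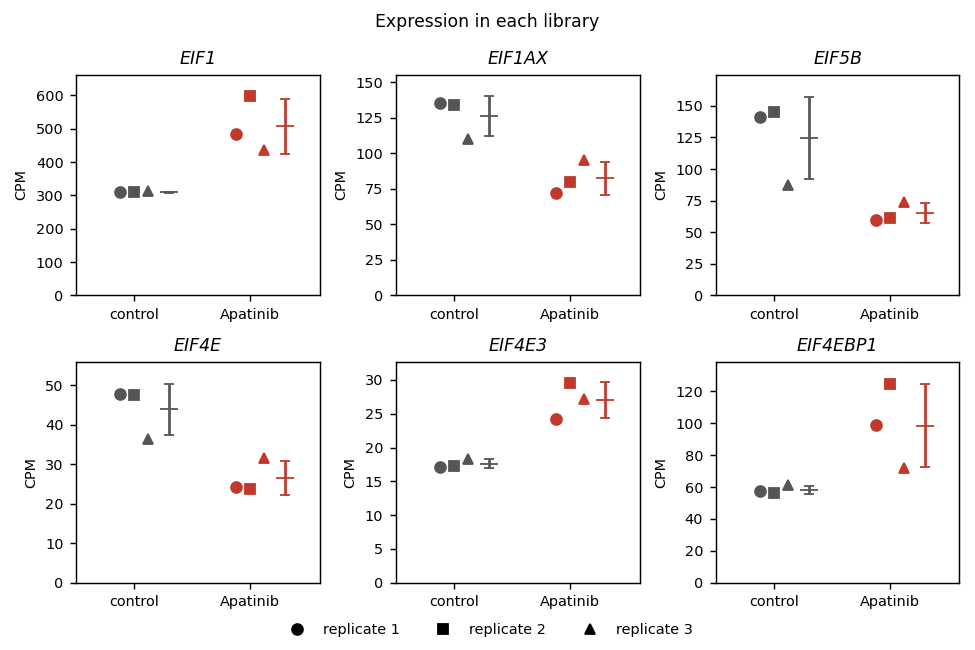
The level in each library (y axis, CPM from 0) is shown for the 5 member DEGs and EIF4EBP1, with symbols for replicates and bars for the mean and SD of 3 libraries per group. No gene overlaps between the groups, and for all 6 genes control replicate 3 (triangle) is the control nearest to the Apatinib mean.

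The eIF4 factors held the other 2 DEGs among 12 tested genes (16.7%, against 11.5% of all genes). EIF4E (ENSG00000151247), the cap-binding protein and the usual limiting part of eIF4F, was at 24.3, 23.7 and 31.6 CPM with Apatinib and at 47.9, 47.4 and 36.4 CPM in the controls. All Apatinib libraries lay below all controls, with replicate 3 of each group closest to the other group. EIF4E fell by 0.73 on the log2 scale (SE 0.16, FDR = 0.0179, edgeR), and the control level was 1.65 times the Apatinib level. In FPKM it was at 3.36, 2.46 and 5.55 against 8.52, 10.2 and 5.83, without overlap, with a log2 fold change of -1.13 on the log2(FPKM + 0.1) scale (FDR = 0.0604, limma). On the log2(FPKM + 1) scale the log2 fold change was -0.96 (FDR = 0.0594, limma).

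EIF4E3 (ENSG00000163412) encodes an atypical relative of eIF4E that binds the cap with a different pocket. Its level was 24.3, 29.5 and 27.2 CPM with Apatinib and 17.1, 17.3 and 18.4 CPM in the controls. The controls lay close together and below all Apatinib libraries. EIF4E3 rose 1.53-fold (log2 fold change 0.62, SE 0.14, FDR = 0.0175, edgeR). On the log2(FPKM + 1) scale, which understates low genes, its log2 fold change was 0.36 (FDR = 0.112, limma). With a pseudocount of 0.1 it was 0.56 (FDR = 0.115, limma). Per length, both genes were low, at 1.59 FPKM for EIF4E3 and 5.99 FPKM for EIF4E over the 6 libraries. EIF4E2, the third relative, which mostly represses its targets, was at 47.9, 25.7 and 43.2 CPM with Apatinib and at 36.2, 39.6 and 45.0 CPM in the controls, with a 95% interval of the log2 fold change from -0.49 to 0.39.

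Of the scaffolds, EIF4G1 was at 586, 418 and 491 CPM with Apatinib and at 574, 620 and 675 CPM in the controls (log2 fold change -0.32, FDR = 0.151, edgeR). In CPM, Apatinib replicate 1 lay within the controls and the other two below them. EIF4G2, a scaffold that does not bind eIF4E, and EIF4G3 had 95% intervals from -0.34 to 0.17 and from -0.26 to 0.25. Of the helicases, EIF4A2 was at 292, 258 and 323 CPM against 253, 252 and 234 CPM, higher without overlap but with an FDR of 0.210 (log2 fold change 0.24, edgeR), and EIF4A3, the helicase of the exon junction complex, was at -0.11 on the log2 scale.

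The promoter of EIF4E is shown because EIF4E is the one member DEG whose promoter held CACGTG, an E-box, the palindromic motif of MYC and related factors. The 250 bases before its annotated start (RefSeq, GRCh38.p14, chr4:98929134-98929383, minus strand) hold the motif 2 times, in capitals, with first bases 225 and 72 bases before the start.
EIF4E: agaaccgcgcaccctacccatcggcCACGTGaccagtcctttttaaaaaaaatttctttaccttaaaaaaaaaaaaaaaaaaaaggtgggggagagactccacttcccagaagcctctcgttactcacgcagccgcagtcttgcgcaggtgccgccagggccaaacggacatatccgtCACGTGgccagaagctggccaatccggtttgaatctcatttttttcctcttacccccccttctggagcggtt
In windows of 300 bases around the annotated starts (250 before, 50 from the start), CACGTG was present for 12 of 47 tested members with a window (25.5%), for 8.77% of the 27305 genes with a window and in 7.26% of all 35116 windows of this length. The windows of EIF1, EIF1AX, EIF5B and EIF4E3 did not contain these letters. The motif was looked for after the values were seen, and a match is not a site of binding.

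EIF4EBP1 (ENSG00000187840), which encodes the main binding protein that keeps eIF4E from eIF4G, was the counterpart of EIF4E. It was at 98.9, 125 and 72.1 CPM with Apatinib and at 57.3, 56.3 and 61.2 CPM in the controls. All Apatinib libraries were higher, with replicate 3 the nearest to the controls. EIF4EBP1 rose 1.69-fold (log2 fold change 0.76, SE 0.17, FDR = 0.0213, edgeR). This call was lost without Apatinib replicate 1, control replicate 1 or control replicate 2, where the FDR reached at most 0.0947 (edgeR), with the controls summed (FDR = 0.0919, edgeR) and on FPKM (FDR = 0.0531 and 0.0542, limma). EIF4EBP2 was at 72.2, 51.0 and 72.1 CPM against 80.3, 79.0 and 91.0 CPM, lower without overlap (log2 fold change -0.36, FDR = 0.134, edgeR), and EIF4EBP3, with 1 to 6 counts, was not tested.

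The ratio of EIF4E to EIF4EBP1, as log2 of CPM, was -2.02, -2.40 and -1.19 in the Apatinib libraries and -0.26, -0.25 and -0.75 in the controls. The groups did not overlap and their means differed by -1.45. This separation follows from the opposite moves of the 2 genes, neither of which overlapped, and is not a further result. The ratio of EIF1 to EIF1B was 3.74, 3.77 and 3.70 with Apatinib and 3.18, 3.35 and 3.22 in the controls, a difference of 0.49. Both groups were narrow here, with an SD of 0.03 and 0.09. The ratio of EEF1A1 to EEF1A2 also did not overlap between the groups (difference -0.25), nor did that of EEF2 to its kinase EEF2K (difference 0.20). Ratios within the eIF4A, eIF4G and eIF5A families overlapped in CPM, as did that of EIF4E to EIF4E2 (difference -0.64). In FPKM the ratios of EIF4E to EIF4E2 (difference -1.15) and of EIF4A1 to EIF4A2 (difference -0.53) did not overlap, and the CPM ratios with EIF4A1 rest on its 89 to 162 counts, which do not match its FPKM. These ratios describe pairs chosen with earlier results known and were not tested.

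**Figure D3:**
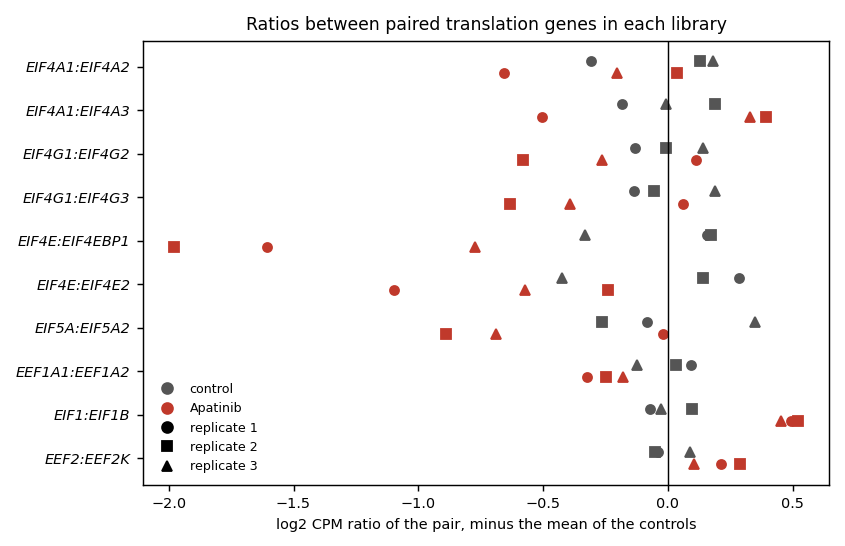
The log2 CPM ratio of each pair in each library is shown relative to the control mean (x axis), with gray for controls and red for Apatinib. The ratio EIF4E:EIF4EBP1 lies to the left of the controls in all Apatinib libraries (mean difference -1.45) and EIF1:EIF1B to the right (0.49), while 6 of the 10 pairs overlap. The separation of EIF4E:EIF4EBP1 follows from the opposite moves of its genes.

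None of the 9 tested genes of eIF2 and its exchange factor eIF2B was a DEG by edgeR (11.5% of all genes), and 2 had an unadjusted p under 0.05. EIF2S1 encodes the α subunit, which carries the regulatory phosphorylation site, and by FDR it came nearest to the limit from outside. It was at 95.3, 117 and 114 CPM with Apatinib and at 138, 145 and 134 CPM in the controls. The groups did not overlap, but the log2 fold change was -0.36 with an FDR of 0.0726 (edgeR). EIF1AX, with an FDR of 0.0197, was the member nearest to the FDR limit from inside. EIF2S2 and EIF2S3, the β and γ subunits, had log2 fold changes of 0.24 and 0.06, and the 5 eIF2B subunits lay between -0.15 and 0.09. EIF2S3L, a copy of the γ subunit with 11 to 28 counts, had the highest log2 fold change of all members (0.84, SE 0.35, FDR = 0.125, edgeR), and its reads may be shared with EIF2S3.

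None of the 4 eIF2 kinases was a DEG by edgeR (1 with an unadjusted p under 0.05), and 3 had groups that did not overlap in CPM, against 11.5% and 33.2% of all genes. The list is too short to be read against these shares. EIF2AK4 (GCN2, the kinase of amino acid shortage) was at 141, 126 and 144 CPM with Apatinib and at 104, 113 and 111 CPM in the controls (log2 fold change 0.32, FDR = 0.0853, edgeR). EIF2AK1 (HRI, the heme-regulated kinase) was higher in all Apatinib libraries, with a log2 fold change of 0.18. EIF2AK3 (PERK, the kinase of endoplasmic reticulum stress) was lower in all Apatinib libraries in CPM, with -0.20, but its groups overlapped in FPKM. EIF2AK2 (PKR, the kinase activated by double-stranded RNA) overlapped, with -0.23. All 4 log2 fold changes were thus under 0.5 in size, and 2 were on each side of 0.

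The 14 genes listed for eIF3, the largest initiation factor, include EIF3CL, a near-identical copy of EIF3C. They held no DEG by edgeR (2 with an unadjusted p under 0.05), against 11.5% of all genes. None had groups without overlap in CPM, against 33.2% of all genes. Their median log2 fold change was 0.05, with a range from -0.40 for EIF3A to 0.44 for EIF3CL, which had only 5 to 15 counts (SE 0.51), and the next highest was EIF3F. EIF3A, the core subunit, was at 144, 145 and 176 CPM with Apatinib and at 214, 227 and 173 CPM in the controls, so that control replicate 3 lay below Apatinib replicate 3 (log2 fold change -0.40, FDR = 0.0776, edgeR). EIF3J, a loosely bound subunit, was at -0.38 (FDR = 0.102) and EIF3B at -0.26 (FDR = 0.237, edgeR). EIF3F was at 305, 199 and 242 CPM against 183, 176 and 225 CPM, with a log2 fold change of 0.35 (FDR = 0.168, edgeR).

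Among eIF5A and eIF6, 4 genes were tested and none was a DEG by edgeR (1 with an unadjusted p under 0.05), which at 11.5% of all genes says little of so short a list. EIF5A, the hypusine-bearing factor that helps ribosomes past difficult stretches, was at 281, 198 and 226 CPM with Apatinib and at 279, 293 and 341 CPM in the controls. Apatinib replicate 1 lay within the controls in CPM, and the log2 fold change was -0.37 (FDR = 0.113, edgeR). Its relative EIF5A2 had a 95% interval from -0.20 to 0.50.

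No elongation factor gene was a DEG among 7 tested (edgeR), none had groups without overlap in CPM, and 2 had an unadjusted p under 0.05. Of all genes 11.5% were DEGs and 33.2% did not overlap, and a list of 7 is too short to stand apart from such shares by its count of DEGs. EEF1A1, which brings aminoacyl-tRNA to the ribosome, had the highest level per length of all members, with a mean of 2117 FPKM over the 6 libraries, and it alone took 0.752%, 0.604% and 0.687% of all counts with Apatinib and 0.578%, 0.591% and 0.647% in the controls. Its level was 7910, 5891 and 6823 CPM against 5687, 5893 and 6535 CPM, with a log2 fold change of 0.19 and a 95% interval from -0.13 to 0.50. All members together took 1.69% to 1.92% of counts with Apatinib and 1.68% to 1.78% in the controls. Without Apatinib replicate 1, the library in which EEF1A1, EEF2, EIF3F and EEF1A2 were highest, their log2 fold changes were 0.08, 0.07, 0.18 and 0.28. The 38 EEF1A1 pseudogene rows, which can share reads with EEF1A1, took 0.0227% to 0.0298% in any library.

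EEF1A2, the paralog of EEF1A1 found mainly in muscle and brain and in some tumors, was at 556, 393 and 434 CPM with Apatinib and at 300, 323 and 400 CPM in the controls. Control replicate 3 lay above Apatinib replicate 2, and the log2 fold change was 0.43 (FDR = 0.0904, edgeR). In FPKM its groups did not overlap, at 211, 161 and 173 FPKM with Apatinib and 122, 126 and 152 FPKM in the controls. EEF2, the translocase, was at 2682, 1884 and 2134 CPM against 1768, 1802 and 2182 CPM (log2 fold change 0.22, FDR = 0.366, edgeR), and EEF2K, its inhibitory kinase, had a 95% interval of the log2 fold change from -0.31 to 0.36. EEF1E1, a scaffold of the aminoacyl-tRNA synthetase complex, was at 3.90, 5.08 and 3.32 CPM with Apatinib and at 6.52, 6.82 and 4.67 CPM in the controls (log2 fold change -0.54, FDR = 0.134, edgeR). In the FPKM values its groups did not overlap, at 9.02, 11.1 and 8.68 FPKM against 16.99, 15.8 and 12.7 FPKM, and there EEF1E1 was called lower (log2 fold change -0.61 on the log2(FPKM + 1) scale, FDR = 0.0437, limma). FPKM divided by CPM was 2.45 for EEF1E1, the highest of the 55 members with a ratio at or under 10. Its exons overlap EEF1E1-BLOC1S5 on the same strand, a row with 0 counts. Which measure is nearer to its level was not tested. With control replicates 1 and 2 summed, the log2 fold change of EEF1E1 was -0.48 (FDR = 0.33, edgeR).

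The start of the transcript is shown for several members because messenger RNAs of the translation machinery often begin with a C followed by pyrimidines, the 5′ terminal oligopyrimidine tract through which mTOR and LARP1 act on their translation. Each window (RefSeq, GRCh38.p14) holds 8 bases before the annotated start and 22 from it, and capitals mark an unbroken run of C and T of 5 or more that opens with C at the start. The first 5 lines are members with such a run, at chr6:73521011-73521040 (minus strand), chr19:3985442-3985471 (minus), chr2:206159887-206159916 (plus, 1 of 2 annotated starts), chr3:186783569-186783598 (plus) and chr11:7987329-7987358 (plus).
EEF1A1: tgaacgttCTTTTTCgcaacgggtttgccg
EEF2: tcagcgttCTCTTCCgccgtcgtcgccgcc
EEF1B2: cttcgggtCCTTTTTCCTCTCTTCagcgtg
EIF4A2: gccgctgtCTTTTCagtcgggcgctgagtg
EIF3F: tccgcctcCTTCTTTCTCgacaagatggcc
The next 5 lines are the DEGs, in which no annotated start opened such a run, at chr17:41688877-41688906 (plus), chrX:20141817-20141846 (minus), chr2:99337381-99337410 (plus), chr4:98929112-98929141 (minus) and chr3:71754752-71754781 (minus, 1 of 3 annotated starts).
EIF1: gcccctctgccccagtcactgagccgccgc
EIF1AX: gtcgcggcgccatttgctgccgccgagcgt
EIF5B: gagaactcacaccatatgtgtcctgttcca
EIF4E: gagcggttgtgcgatcagatcgatctaaga
EIF4E3: cgccgtccagttggcggccgcctggccggt
Of the 47 tested members with a window, 12 (25.5%) had a start that opened such a run, against 5.14% of the 27305 genes with a window and 4.07% of all 35116 windows. None of these 12 was a DEG, where 11.5% of all genes were, a share at which a list of this size holds few DEGs. Their log2 fold changes lay between -0.34 and 0.35 with a median of 0.13. The other 35, which hold all 5 DEGs, had a median of -0.06. Without Apatinib replicate 1 the medians were 0.07 and -0.12, and without Apatinib replicate 2 they were 0.27 and -0.09. The tract was looked for after the values were seen, RNA level does not measure translation, and the difference between the lists was not tested.

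Levels per length placed EEF1A1, EEF2, EIF4A1, EIF5A and EEF1G highest among the members, but counts and FPKM of some members could not be brought together. FPKM divided by CPM lay between 0.0714 and 2.45 in 55 of the 58 members with counts, with a median of 0.318 over the 58. The ratio was 60.7 for EIF4A1, 15.95 for EIF3C and 163 for EIF3CL, genes named here after their values were seen. EIF4A1, the main eIF4A helicase, had only 89 to 162 counts, yet 432, 387 and 386 FPKM with Apatinib and 420, 412 and 467 FPKM in the controls. EEF1G, the γ subunit of eEF1, had 0 counts in all libraries, yet 327, 303 and 138 FPKM with Apatinib and 224, 227 and 314 FPKM in the controls, with overlapping groups. In FPKM, 19 of the 58 tested members (32.8%) had groups without overlap, against 31.7% of all genes, and 12 of them also did not overlap in CPM. The 7 in FPKM alone were EEF1A2, EIF3K and EIF3L, higher with Apatinib, and EIF5A, EEF1E1, EIF4G1 and EIF3B, lower. The 3 in CPM alone were EIF2AK3, EIF2B1 and EIF2B3, lower with Apatinib. These comparisons were made after the data were seen. EIF3C and EIF3CL are near-identical copies, and both were at 85.6 to 107 FPKM. In GENCODE 29, 37 of the 61 members overlap an exon of another gene, 11 of them on the same strand, EIF4A1 and EEF1G included. EIF3C and EIF3CL are not among the 37, and EEF2, EEF1B2 and EIF4A2 overlap on the same strand with FPKM to CPM ratios of 0.224, 0.724 and 0.358. How the counting treated shared reads is not given in the sources used here, and the cause of the gap was not tested. While counts and FPKM differ this far, the fitted values given for EIF4A1, EIF3C and EIF3CL describe their few counts and are not read as changes of these genes.

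**Figure D4:**
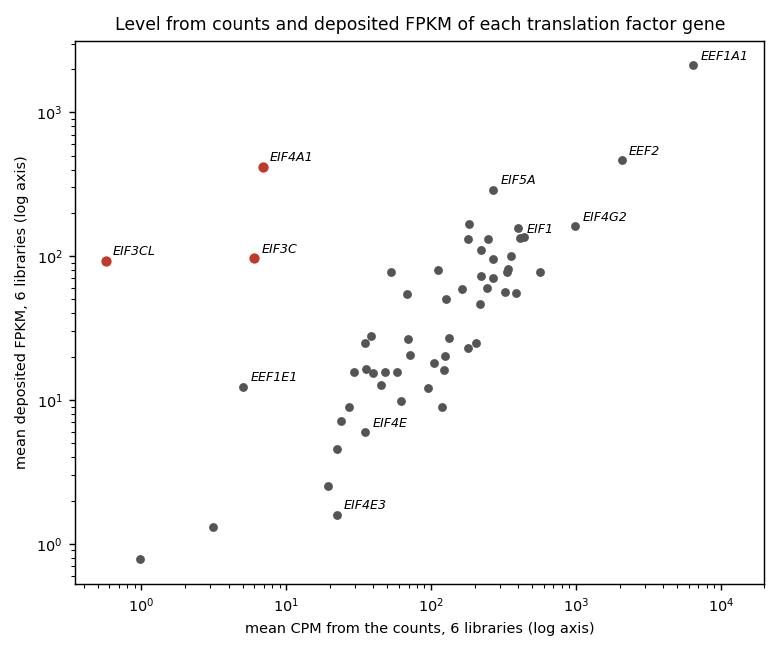
The mean level from the counts (x axis, CPM, log axis) is plotted against the mean deposited FPKM (y axis, log axis) for each member with counts. EIF4A1, EIF3C and EIF3CL, in red, have FPKM far above what their counts give in the other 55 members, and EEF1A1 and EEF2 are highest on both axes.

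Of 40 other genes that act in translation, 39 were tested and 1 was a DEG, EIF4EBP1 (2.56%, against 11.5% of all genes). Their median log2 fold change was -0.07, and 16 of the 39 were above 0. PPP1R15A (GADD34), the stress-induced subunit that directs the eIF2 phosphatase, was at 39.6, 97.6 and 30.9 CPM with Apatinib and at 23.7, 26.8 and 29.7 CPM in the controls. All Apatinib libraries were higher, but replicate 2 stood far above the other two, and the log2 fold change was 1.07 with an SE of 0.34 (FDR = 0.0584, edgeR). ABCE1, the ribosome recycling factor, was at 62.1, 36.7 and 82.2 CPM against 96.7, 103 and 74.1 CPM, with overlapping groups (log2 fold change -0.60, FDR = 0.118, edgeR). None of the poly(A)-binding, termination, hypusine, diphthamide, selenocysteine or mitochondrial factors was a DEG by edgeR, with 1, 0, 0, 2, 0 and 0 of them at an unadjusted p under 0.05.

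The calls of the 5 DEGs depended on how the controls were counted, and some also on Apatinib replicate 1 and on the use of counts. With control replicates 1 and 2 summed to 1 library, no member was a DEG (edgeR, 7 with an unadjusted p under 0.05), and of all genes 1.75% were, against 11.5% with the 6 libraries. The FDR was then 0.0686 for EIF1, 0.0696 for EIF5B, 0.0937 for EIF4E3, 0.0912 for EIF4E, 0.104 for EIF1AX and 0.0919 for EIF4EBP1, while the log2 fold changes were 0.70, -0.83, 0.60, -0.67, -0.57 and 0.74. The count of DEGs was also 0 without control replicate 1 (9 with an unadjusted p under 0.05) or control replicate 2 (8), where 1.65% and 1.80% of all genes were DEGs. It was 3 without Apatinib replicate 1 (4.73% of all genes) and 7 without control replicate 3 (15.5%). The calls lost without Apatinib replicate 1 were EIF4E (FDR = 0.0581) and EIF1AX (FDR = 0.0628, edgeR). The loss of calls was thus shared by the whole comparison. All 6 genes kept their direction whichever single library was left out. DESeq2 called the same 5 members, and 6.28% of all genes. On FPKM, EIF1 alone of the 5 was called, and the FDR of the others was 0.0532 to 0.115 (limma).

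**Figure D5:**
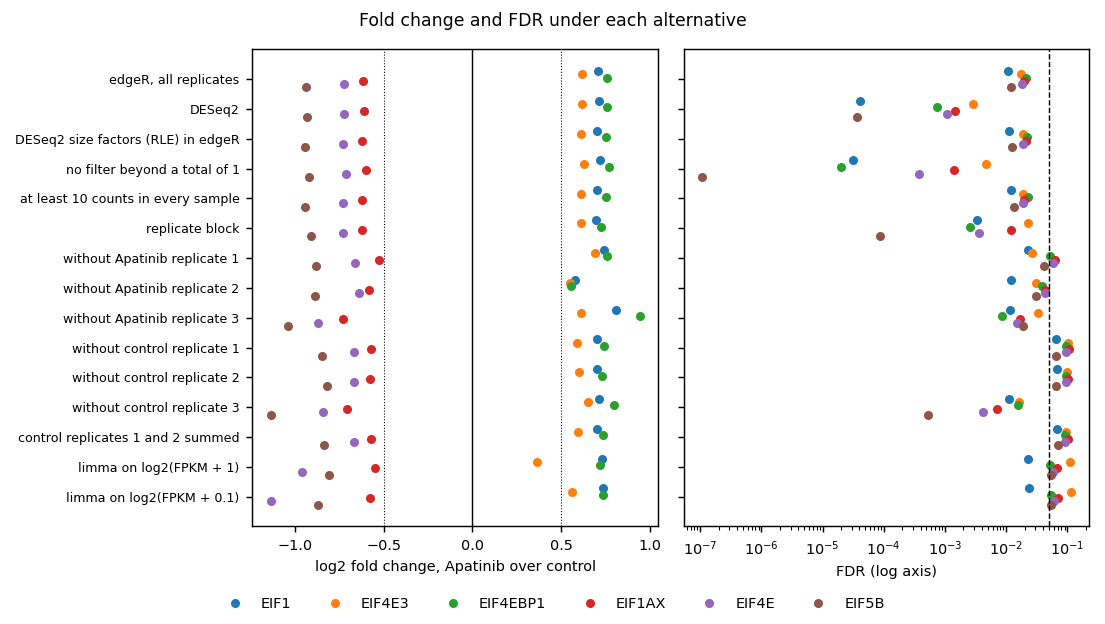
For the 5 member DEGs and EIF4EBP1, the log2 fold change (left) and the FDR (right, log axis, dashed line at 0.05) are shown with all libraries and under each alternative named on the axis. No point crosses 0 on the left, and on the right all 6 genes lie above 0.05 without control replicate 1, without control replicate 2 and with both summed.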

How the data were processed

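RNA of SW872 cells was sequenced by the authors on an Illumina NovaSeq. The submitters' processing notes name CASAVA, STAR version 2.7.1a and the genome build hg19, with no order or role. The counting program, the annotation and the strand setting are not given in the sources used here. The authors deposited a table of whole-number counts per gene, not normalized, for the 6 libraries. The authors also deposited FPKM values per library, and 1 column of values headed with another library's label was not used. How FPKM was computed is not given in the sources used here.

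Counts were tested with edgeR 4.0.16 (R 4.3.3), with TMM scaling, its default filter on low counts, the quasi-likelihood test of 3 Apatinib against 3 control libraries without covariates and Benjamini-Hochberg adjustment over all 16290 genes. The fit was tested on simulated data. The study used DESeq2, which was run here (version 1.42.0) as an alternative, as were limma 3.58.1 for genes with a mean of at least 0.5 FPKM, after adding a pseudocount of 1 or 0.1 and taking log2, other filters, glmTreat, a replicate block, and each library left out. Libraries held 17043314 to 22067558 counts, with TMM factors of 0.952 to 1.03 and a biological coefficient of variation of 0.149, and p-values measure the spread between these libraries. Replicate numbers did not pair the libraries. Sequences are from RefSeq (GRCh38.p14), and exon overlaps were read from GENCODE 29.

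The members and lists were chosen with earlier results of these data known. The text names every member DEG, 25 members by the smallest p, the 5 members with the highest FPKM, the members nearest to the FDR limit on each side, the members under the filter, the genes of each pair, and the DEGs and eIF4E-binding proteins among the other translation genes. Any other gene was named after its values were seen.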

Additional observations from a re-analysis of the deposited data

How the results depend on the processing

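Of the 58 tested members, 5 were DEGs under 6 further settings: DESeq2, its size factors in edgeR, no filter on low counts, at least 10 counts in every library, FDR alone and the replicate block. Of all genes, 6.28% were DEGs with DESeq2, 11.4% with its size factors, 7.85% without the filter and 12% with at least 10 counts. By FDR alone the share was 12.9%, and with the block 13.6%. The share of members called was 8.62%, or 8.77% with at least 10 counts. It was above that of all genes with DESeq2 and without the filter, where 32596 genes were tested, and below it otherwise. The count of members called was 0 with control replicates 1 and 2 summed (edgeR, 7 with an unadjusted p under 0.05), 0 when the fold limit was part of the test (glmTreat, 3), and 2 (EIF1 and EEF1E1) with limma on FPKM at either pseudocount. Of all genes, 1.75% were called with the controls summed, 0.454% with glmTreat and 5.03% to 5.12% with limma. With 1 library left out the count of members ranged from 0 to 7, and the share of all genes from 1.65% to 15.5%. The median log2 fold change of the members stayed between -0.03 and 0.03. Of the other translation genes, 3 were DEGs without the filter and 3 with the replicate block (ABCE1, EIF4EBP1 and PPP1R15A), and 0 with the controls summed (edgeR, 2 with an unadjusted p under 0.05), with limma at either pseudocount (9) and with glmTreat (2). With 1 library left out it ranged from 0 to 4. The numbers did not pair the libraries (correlations of -0.26, 0.08 and -0.22 between same-numbered deviations), and the block left the 5 member DEGs as they were.

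Of the named genes, EIF4A1, EIF4G3, EIF4E2 and EEF2K changed sign under at least 1 alternative, all with log2 fold changes near 0 with all libraries. The other members were not followed one by one. EIF4G3 was at 0.0046 without the filter and with the controls summed, and at 0.0085 and 0.0086 with limma. EEF2K was at -0.0023 with the controls summed and at -0.0707 and -0.0776 with limma. With 1 library left out, the values ranged from -0.16 to 0.13 for EIF4A1, from -0.042 to 0.059 for EIF4G3, from -0.22 to 0.18 for EIF4E2 and from -0.11 to 0.17 for EEF2K. On the FPKM scale the difference in the ratio of EIF4E to EIF4E2 was -1.15 (-0.64 in CPM) and in that of EEF2 to EEF2K 0.30 (0.20 in CPM). The causes were not tested. With 3 libraries per group, members with intervals that reach 0.5 on the log2 scale cannot be called unchanged, and genes of few counts, such as EIF2S3L, could only be called at large folds.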

Other observations

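The median log2 deviation from the control mean, over the tested members, was 0.12 in Apatinib replicate 1, -0.07 in Apatinib replicate 2 and -0.01 in Apatinib replicate 3, and -0.04, -0.02 and 0.04 in control replicates 1 to 3. Apatinib replicate 1 lay above the controls, Apatinib replicate 2 below them and Apatinib replicate 3 among them. EEF1A1, EEF2, EEF1A2 and EIF3F, described in the report, were each highest in Apatinib replicate 1 of all 6 libraries.

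Leaving out control replicate 3, the control nearest to the Apatinib mean for all 5 member DEGs, moved EIF3A to a log2 fold change of -0.51 (FDR = 0.0311) and EEF1A2 to 0.57 (FDR = 0.0367, edgeR). Other omissions moved them toward 0. EIF3A was at -0.32 (FDR = 0.320) without control replicate 2, and EEF1A2 at 0.28 (FDR = 0.270) without Apatinib replicate 1 (edgeR). Leaving out Apatinib replicate 2 moved EIF3J to -0.52 (FDR = 0.0345, edgeR), while without Apatinib replicate 1 EIF3J was at -0.31 (FDR = 0.257, edgeR). These 3 members were not DEGs with all libraries. With control replicates 1 and 2 summed, the FDR was 0.277 for EIF3A, 0.302 for EEF1A2 and 0.283 for EIF3J (edgeR).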
